A study of Rattus norvegicus with 4 samples.

Results

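Keratin genes were examined in NR8383 cells, a macrophage line established from rat lung lavage, after 4 h with the carbon black Printex90. The set comprised every gene that a probe on the array could be matched to by RefSeq accession and whose rat symbol is Krt followed by a number and at most 1 letter. This gave 47 keratin genes of 16581 named genes, 24 of type I and 23 of type II. Another 7 keratin symbols of the RefSeq table (Krt10, Krt12, Krt222, Krt32, Krt6a, Krt78 and Krt83) were not matched to a probe here. The genes described in full, Krt79 and the other keratins with a signal, were chosen by these same measured levels and detection calls, so both are given as a description and were not tested.

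One group of 4 arrays was analysed, each with RNA of 1 biological replicate per the series design. All 4 cultures received Printex90 at the labelled dose of 0.9 cm2/cm2, with the abbreviation ALI in the labels, and the labels describe the cells as being at 20 passages. NR8383 is a single established line grown partly adherent and partly floating, so the replicates differ in culture and not in donor animal. Untreated cells, the other group of the design, were not analysed here, and no value below is a response to the particles. Of 13 measured macrophage markers, 10 (76.9%) were detected on all 4 arrays, against 50.8% of all named genes. Among them were Cd68 (7.56 ± 0.21), Csf1r (1.24 ± 0.18), Itgam (2.48 ± 0.06) and Mrc1 (1.81 ± 0.18, level, SD, n = 4 for each). Itgam was detected by both of its probes, with a mean over both of 1.08. Of the other 3 markers, Adgre1 was detected on 2 arrays, and Marco and Cebpa on 1 array each. Because these are bulk samples, few cells with much of a transcript and many cells with little of it cannot be told apart.

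Keratins are the intermediate filament proteins of epithelial cells. A type I and a type II keratin pair to form each filament, and epithelia are told apart by the pairs they make, such as Krt8 with Krt18 in simple epithelia and Krt5 with Krt14 in the basal layer of skin. Macrophages build their cytoplasmic intermediate filaments mainly from vimentin. A level here is the log2 spot intensity minus the 75th percentile of the same array, so 0 lies at that percentile, which was an intensity of 99.4, 83.8, 101 and 127 on replicates 1 to 4. A gene counts as detected on an array when at least 1 kept spot of at least 1 of its probes was called well above background by the scanner software. Probes differ in how strongly they bind, so levels of single genes are not ranked, and medians over lists are given as a description only.

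Krt79 was detected by every kept spot on every array, and its start regions are shown because the result turns on this gene. RefSeq annotates 3 starts for Krt79 on chromosome 7, minus strand, of the rat assembly GRCr8. The 250 bases before each start are given 5′ to 3′, with that region of Krt4 for contrast. Krt4 is the nearest gene with a probe before Krt79 in the order of the RefSeq table and was detected on 2 arrays. Capitals mark matches to the motifs searched.
Krt79 start 1, chr7:134946448-134946697: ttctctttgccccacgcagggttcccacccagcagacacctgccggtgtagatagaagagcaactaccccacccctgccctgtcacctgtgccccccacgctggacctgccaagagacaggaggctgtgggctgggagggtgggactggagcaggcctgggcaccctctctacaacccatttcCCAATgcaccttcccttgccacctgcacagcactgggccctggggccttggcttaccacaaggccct
Krt79 start 2, chr7:134946098-134946347: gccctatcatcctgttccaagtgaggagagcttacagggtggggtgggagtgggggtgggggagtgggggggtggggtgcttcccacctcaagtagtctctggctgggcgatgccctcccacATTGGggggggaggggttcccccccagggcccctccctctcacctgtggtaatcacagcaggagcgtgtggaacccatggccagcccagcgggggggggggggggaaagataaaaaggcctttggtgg
Krt79 start 3, chr7:134942607-134942856: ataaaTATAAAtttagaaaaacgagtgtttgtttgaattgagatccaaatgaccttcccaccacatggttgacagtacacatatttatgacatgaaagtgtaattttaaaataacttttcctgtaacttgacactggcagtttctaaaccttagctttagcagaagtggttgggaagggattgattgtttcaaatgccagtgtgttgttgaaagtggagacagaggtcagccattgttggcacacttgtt
Krt4, chr7:134930714-134930963: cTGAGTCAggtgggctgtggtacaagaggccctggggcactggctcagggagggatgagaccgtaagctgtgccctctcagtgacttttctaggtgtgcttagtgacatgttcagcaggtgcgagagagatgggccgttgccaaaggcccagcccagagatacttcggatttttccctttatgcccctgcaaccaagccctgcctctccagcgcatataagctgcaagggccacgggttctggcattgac

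Both strands were searched for 5 motifs. These were the TATA box as TATAAA, the CCAAT box as those letters, the core of the macrophage factor PU.1 as GAGGAA, the site of AP-1 as TGANTCA and the GC box as GGGCGG. No 2 matches to different motifs overlapped in these windows. Start 1 of Krt79 held CCAAT from 67 to 63 bases before the start. Start 2 held CCAAT on the opposite strand, printed as its complement, from 128 to 124 bases before the start, and start 3 held TATAAA from 245 to 240. The Krt4 window held TGANTCA on both strands, since this motif is its own complement, from 249 to 243 bases before the start. Among the 250-base windows of all 33469 RefSeq starts in the table, the TATA box motif occurred in 12.9%, the CCAAT box in 34.0%, the PU.1 core in 23.3%, the AP-1 site in 6.34% and the GC box in 30.5%. The share of G and C was 63.6%, 65.6% and 36.4% before starts 1 to 3 of Krt79 and 57.2% before Krt4, against a median of 51.2% over all starts. These matches describe the letters of the windows only, and which Krt79 start was used in the cells was not tested.

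Fewer keratins than named genes at large were called well above background. On all 4 arrays 10 of the 47 keratin genes were detected (21.3%), against 50.8% of all named genes. On at least 1 array it was 23 of 47 (48.9%), against 63.1% of all named genes. On no array it was 24 of 47 (51.1%), against 36.9% of all named genes, and on some arrays but not all it was 13 of 47 (27.7%), against 12.3% of all named genes. The keratin set thus had fewer members detected throughout and more members detected on part of the arrays than the named genes at large. The counts depend on the flag. Under the software's less strict flag, which asks only for a positive and significant signal, 19 of 47 keratins were called on all 4 arrays, against 61.7% of all named genes, and 39 of 47 on at least 1 array, against 87.8% of all named genes. Type I and type II keratins contributed 4 of 24 and 6 of 23 genes detected on all 4 arrays. The median level was -4.39 over the 47 keratin genes, against -2.13 over all named genes. Over the genes detected on all 4 arrays it was -1.47 for the 10 keratins, against 1.80 for the 8424 named genes. For scale, the negative-control spots had median levels of -5.10, -4.95, -4.99 and -5.49 on replicates 1 to 4, and none of them was called well above background.

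**Figure D1:**
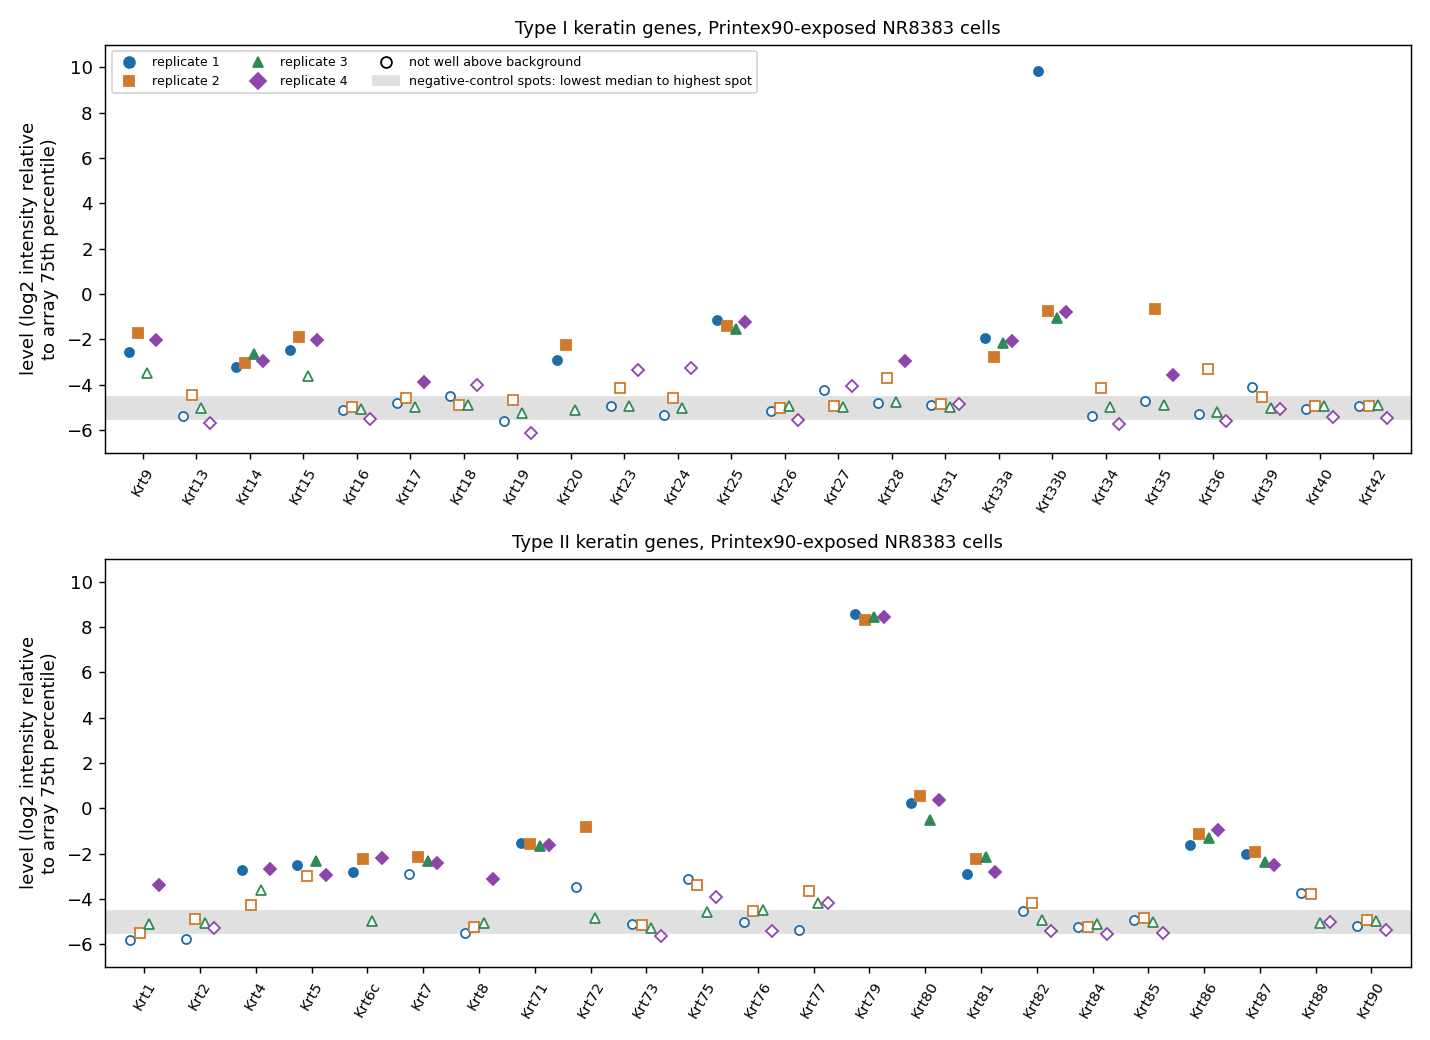
Level of each of the 47 keratin genes on each array (log2 intensity relative to the array's 75th percentile), type I genes above and type II genes below. Filled symbols are well above background. The grey band runs from the lowest array median to the highest single spot of the negative controls, so control spots also lie below it. Krt79 lies near 8.45 on all 4 arrays, Krt33b lies at 9.83 on replicate 1 alone, and most other genes lie in or just above the band.

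Krt79 is a type II keratin known in mouse skin from the upper hair follicle and the duct of the sebaceous gland. Its level was 8.58, 8.32, 8.44 and 8.45 on replicates 1 to 4, a mean of 8.45 ± 0.11 (SD, n = 4). The underlying mean intensities were 38156.5, 26751.9, 35159.8 and 44532.5. The 4 arrays lay close together, within a range of 0.26. Its probe was printed 10 times on each array, and the 39 kept spots had levels from 8.22 to 8.78, all of them well above background. The remaining spot, on replicate 4, carried an outlier flag and was left out at a level of 8.82. The SD between spots within an array was 0.10, 0.07, 0.11 and 0.13 on replicates 1 to 4, of the same order as the SD between arrays. The signal of Krt79 therefore rests on 10 places of each array and on 1 probe, with no other probe of the gene to set beside it. That probe was matched through a predicted RefSeq transcript, and signal from other transcripts on it was not tested. A Krt79 spot on replicate 2 lay in a region marked as bright. With such regions removed from all arrays Krt79 lay at 8.42.

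The nearest genes with a probe on either side of Krt79 in the RefSeq table did not share its pattern of detection. Before it, Krt4, a keratin of mucosal epithelia, was detected on 2 arrays and Krt76, a keratin of the oral epithelium, on none (-4.86 ± 0.44). After it, Krt8 and Krt18, the pair of simple epithelia, were detected on 1 array and on none. Krt79 was the one gene of these 5 detected on all 4 arrays.

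Of the remaining genes that were placed in none of the groups below, Krt80 was detected on every array. Krt80 is a type II keratin of many epithelia, found near cell contacts. Its level was 0.21, 0.53, -0.53 and 0.36, a mean of 0.14 ± 0.47 (SD, n = 4), on 1 spot per array. Replicate 3 was the lowest array, and the other arrays lay within 0.31 of one another. The other 5 genes of this group (Krt23, Krt24, Krt42, Krt75 and Krt90) were not detected on any array.

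The keratins of simple epithelia were not detected on all 4 arrays in any case, 0 of 5, against 50.8% of all named genes. Krt18, the type I partner of Krt8, had levels of -4.50, -4.87, -4.89 and -4.03 and was not detected. None of the 36 kept spots of its probe printed 10 times was well above background. Krt8 had levels of -5.51, -5.22, -5.05 and -3.12 and was detected on replicate 4 alone. Krt19, a type I keratin of ducts and glands, had levels of -5.60, -4.66, -5.23 and -6.10 and was not detected. Among the kept spots of these 3 genes, that of Krt8 on replicate 4 was the one called well above background. A spot of Krt18 on replicate 4 was also called, at a level of 2.12, but carried an outlier flag and was left out, and with such spots kept Krt18 counts as detected on 1 array. Krt7, a type II keratin of simple epithelia that includes lung, had levels of -2.88, -2.14, -2.32 and -2.42 and was detected on replicates 2, 3 and 4. Its other probe was not detected on any array, and the mean over both probes was -3.86. Krt20, a keratin of gut epithelium, was detected on replicates 1 and 2 at -2.92 and -2.25 and not on replicate 3 at -5.12, and its only spot on replicate 4 was left out. The Krt20 and Krt8 spots lie in regions marked as bright on replicate 2, and with such regions removed from all arrays both genes have no spot left. The calls of Krt8 on replicate 4 and of Krt20 on replicate 1 lay outside such regions.

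All 3 basal-layer keratins were detected on at least 1 array, against 63.1% of all named genes. Krt14, the type I keratin of basal keratinocytes, had levels of -3.20, -3.06, -2.64 and -2.95, a mean of -2.96 ± 0.24 (SD, n = 4). It counted as detected on all 4 arrays, but with 10 spots per array only 16 of its 38 kept spots were well above background. Krt5, its type II partner, had levels of -2.50, -3.00, -2.34 and -2.95 and was detected on replicates 1, 3 and 4. Its other probe, printed 10 times, had 2 of 39 kept spots well above background, and the mean over both probes was -3.34. Both partners thus lay at the edge of detection. Krt15, a further type I keratin of basal cells, had levels of -2.48, -1.89, -3.63 and -2.01 and was detected on every array but replicate 3.

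Of the suprabasal keratins of the epidermis, 0 of 4 were detected on all 4 arrays, against 50.8% of all named genes. Krt1, the type II keratin made as keratinocytes leave the basal layer, had levels of -5.80, -5.50, -5.09 and -3.38 and was detected on replicate 4 alone. Krt9, a type I keratin of palms and soles, had levels of -2.55, -1.71, -3.47 and -2.01 and was detected on every array but replicate 3. Its other probe was not detected, and the mean over both probes was -3.60. Krt2 and Krt77 were not detected.

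Of the keratins of wounded and hyperproliferative epidermis, 0 of 3 were detected on all 4 arrays, against 50.8% of all named genes. Krt6c had levels of -2.83, -2.22, -4.99 and -2.19 and was detected on every array but replicate 3. Krt17, a type I keratin of skin appendages, had levels of -4.80, -4.57, -5.00 and -3.88, was detected on replicate 4 alone, and had 3 of 39 kept spots well above background. Krt16 was not detected. Among the mucosal keratins, Krt4 had levels of -2.72, -4.25, -3.61 and -2.67 and was detected on replicates 1 and 4, while its partner Krt13 was not detected.

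The inner root sheath, the layer that moulds the growing hair, uses the type I keratins Krt25 to Krt28 and the type II keratins Krt71 to Krt73. Detection on all 4 arrays held for 2 of these 7 genes, and the share over all named genes was 50.8%. Krt25 had levels of -1.16, -1.41, -1.56 and -1.23, a mean of -1.34 ± 0.18 (SD, n = 4). Krt71 had levels of -1.54, -1.58, -1.68 and -1.61, a mean of -1.60 ± 0.06 (SD, n = 4). Each rested on 1 spot per array, and in both genes the arrays differed by 0.40 or less. Krt28 had levels of -4.79, -3.69, -4.77 and -2.96 and was detected on replicate 4 alone. Krt72 was detected on replicate 2 alone at -0.84, with -3.49 on replicate 1 and -4.85 on replicate 3, and its only spot on replicate 4 was left out. Krt26, Krt27 and Krt73 were not detected.

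The hair-shaft keratins, taken by their numbers, had 5 of 15 genes detected on all 4 arrays (33.3%), against 50.8% of all named genes. On no array it was 9 of 15 (60%), against 36.9% of all named genes. The 5 include Krt33a and Krt33b, neither of which counted as detected with bright regions removed. Among the type II members, Krt86 had levels of -1.60, -1.15, -1.33 and -0.94, a mean of -1.25 ± 0.28 (SD, n = 4). Krt87 had levels of -2.0, -1.94, -2.35 and -2.49, a mean of -2.20 ± 0.27 (SD, n = 4). Krt81 had levels of -2.89, -2.25, -2.13 and -2.82, a mean of -2.53 ± 0.39 (SD, n = 4). All 3 rested on 1 spot per array and lay below the 75th percentile on every array. Type I Krt33a had levels of -1.95, -2.76, -2.15 and -2.06, a mean of -2.23 ± 0.36 (SD, n = 4), on 1 of its 2 probes. The other Krt33a probe was not detected on any array, and the mean over both was -2.95. A Krt33a spot on replicate 3 lay in a region marked as bright, and with such regions removed from all arrays Krt33a was not detected on any array and lay at -3.69. This removal took the detected probe out of every array, so -3.69 is the level of the other probe. The detected probe was not raised on replicate 3, where its level of -2.15 lay between those of the other arrays. Krt35 had levels of -4.72, -0.64, -4.90 and -3.58 and was detected on replicates 2 and 4, and its spot on replicate 2 lay in a bright region too. Hair keratins such as Krt33a and Krt33b, or Krt81, Krt86 and Krt87, are close relatives, and since the probe sequences were not used here, signal shared between relatives was not tested.

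Krt33b, a type I hair keratin, gave a level of 9.83 on replicate 1, against -0.76, -1.04 and -0.78 on the other arrays. Replicate 1 stood 10.6 above the next array, while the other arrays lay within 0.29 of one another. Without replicate 1 the mean level was -0.86, against 1.81 with it. The spots around it on replicate 1 were bright as well. Of the 22 neighbouring spots within 2 rows and 2 columns, 15 (68.2%) stood at least 1 log2 unit above every other array, with a median excess of 3.83. The same count was 0 of 22 on each of replicates 2, 3 and 4. Farther out on replicate 1, up to 12 rows and 6 columns away, it was 14 of 274 spots (5.11%), and over the whole array it was 0.719% of kept spots. The scanner software put an outlier flag on 9 of the 22 neighbours but not on the Krt33b spot itself. The part of this local brightness in the Krt33b level on replicate 1 was not tested.

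**Figure D2:**
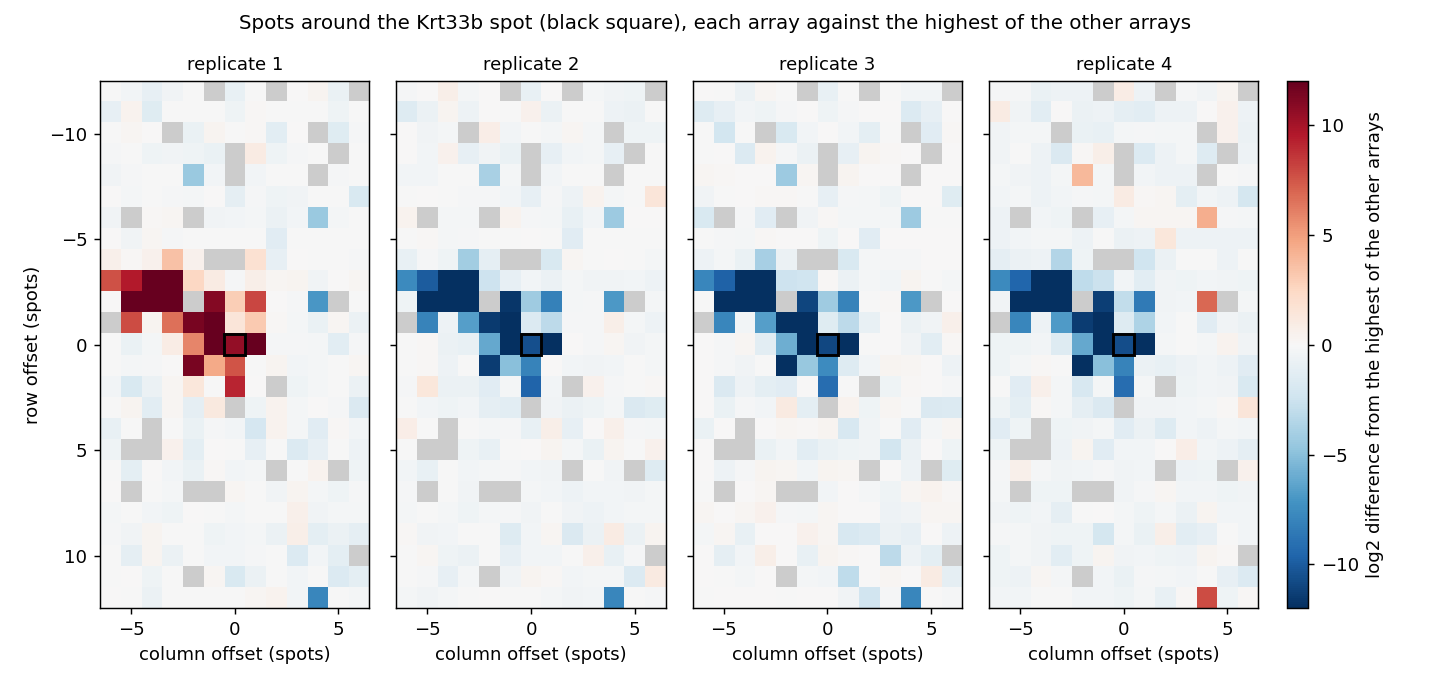
Each panel is 1 array, each square 1 spot around the Krt33b spot (black outline), with offsets in spots along both axes; colour gives the log2 difference from the highest of the other 3 arrays, and grey squares have no value. On replicate 1 a run of bright spots crosses the Krt33b position, where 15 of 22 neighbours exceed every other array by at least 1, and the same positions on replicates 2 to 4 show none.

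The probes printed 10 times allow replicate 3 to be set against the other arrays spot by spot. For Krt6c the 10 kept spots of replicate 3 had levels from -5.13 to -4.78, and none was well above background. The 28 kept spots of the other 3 arrays had levels from -3.55 to -1.71, and 24 of them were well above background. For Krt15 the 9 kept spots of replicate 3 had levels from -4.12 to -3.17, none well above background, and the 27 of the other arrays had levels from -3.05 to -1.14, with 25 well above background. In both genes every kept spot of replicate 3 lay below every kept spot of the other arrays. This was so for 2 of the 7 keratin probes printed 10 times, against 0.593% of all 1349 probes printed 10 times. The spots of Krt79, Krt14, Krt17, Krt18 and Krt5 overlapped between replicate 3 and the other arrays, and Krt14 had its highest mean on replicate 3. Krt6c and Krt15 were among the genes already known to lack a call on replicate 3. Detection on every array but replicate 3 was met by 3 of 47 keratins (6.38%), namely Krt15, Krt6c and Krt9, against 1.76% of all named genes. Detection on replicate 4 alone was met by 4 of 47 keratins (8.51%), namely Krt1, Krt8, Krt17 and Krt28, against 3.99% of all named genes. Replicate 4 also detected the most keratins and the most genes. The counts on replicates 1 to 4 were 16, 17, 12 and 21 of the 47 keratins, against 55.1%, 55.7%, 53.8% and 60.2% of all named genes. As shares of the keratins these counts were 34.0%, 36.2%, 25.5% and 44.7%. Spots of 1 probe on 1 array share the same RNA, so these spot ranges show agreement within an array and not between cultures.

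**Figure D3:**
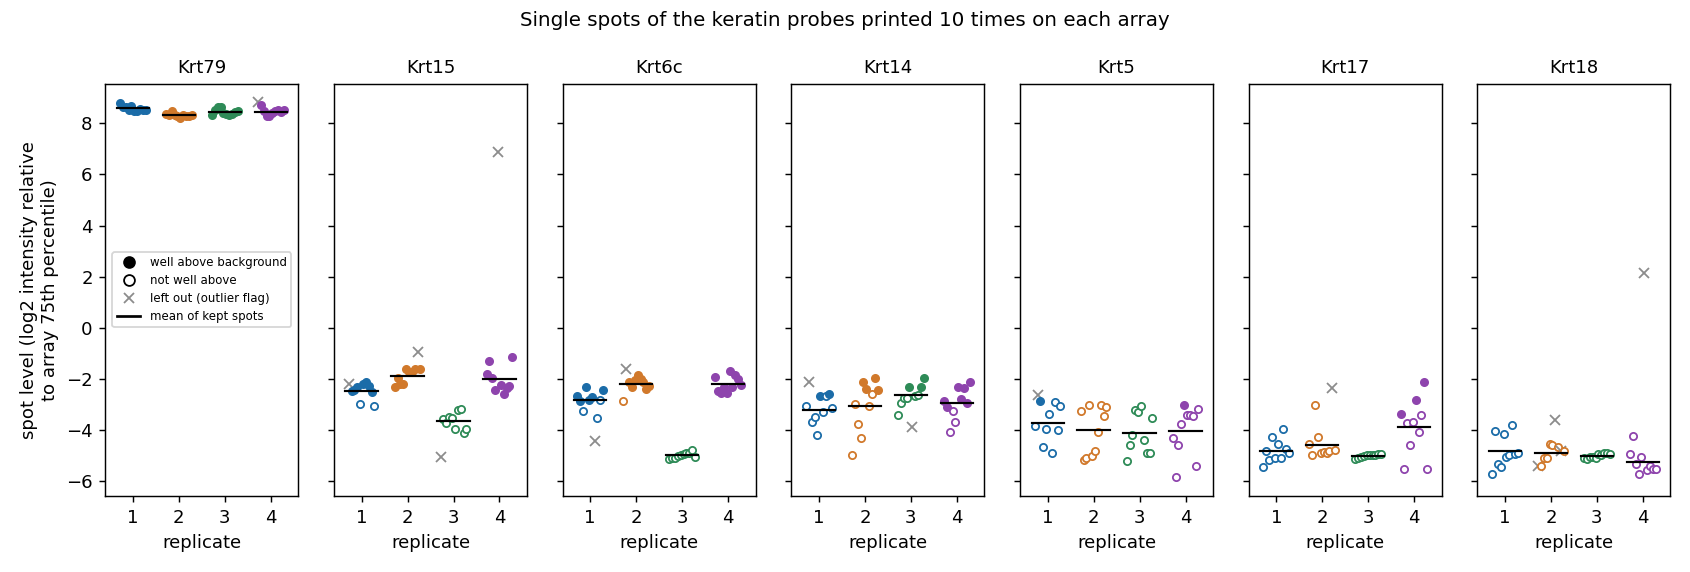
Single spots of the 7 keratin probes printed 10 times on each array, by replicate (spot level in log2 intensity relative to the array's 75th percentile); filled points are well above background, crosses are spots left out for an outlier flag and bars are means of the kept spots. Krt79 spots lie between 8.22 and 8.78 on all arrays, Krt15 and Krt6c spots of replicate 3 lie below those of the other arrays, and Krt18 has no kept spot well above background.

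Among keratins detected on at least 1 array and measured on all 4, replicate 3 was the lowest array for 9 of 21 (42.9%), against 27.8% of the 10389 named genes of that kind. Replicate 4 was the lowest array for 1 of 21 keratins (4.76%), against 26.6% of those named genes. Both shares depend in part on the selection by detection. A gene called on replicate 4 alone tends not to be lowest on that array. A gene without a call on replicate 3 alone tends to be lowest on replicate 3. These 2 kinds made up 8.51% and 6.38% of the 47 keratins, against 3.99% and 1.76% of all named genes. The shares are therefore a description only. The spread over arrays was also compared among genes detected on all 4. The median SD of the level was 0.274 for the 10 keratins and 0.267 without Krt33b, against 0.165 for the 8424 named genes. Without Krt33b the SDs of the other 9 keratins reached from 0.06 (Krt71) to 0.47 (Krt80). This order depends on the processing. With the array median as scale the median SD was 0.390 for the keratins, against 0.390 for the named genes, and after normexp on the median signals it was 0.131 for the keratins, against 0.142 for the named genes.

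The 24 keratins detected on no array had mean levels from -5.40 to -3.75 and single levels from -6.10 to -3.13. Besides those named above they were Krt31, Krt34, Krt36, Krt39, Krt40, Krt82, Krt84, Krt85 and Krt88 of the hair-shaft series. The share detected differed with the number of spots a gene had, among keratins as among all named genes. Of the 37 keratins with 1 spot, 7 (18.9%) were detected on all 4 arrays and 23 (62.2%) on none, against 44.8% and 42.8% of the named genes with 1 spot. Of the 10 keratins with more than 1 spot, 3 (30%) were detected on all 4 arrays and 1 (10%) on none, against 66.9% and 21.2% of the named genes with more than 1 spot.

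Genes related to keratins were described from lists, each set against the 50.8% of all named genes detected on all 4 arrays and their median level of -2.13. Of the intermediate filament genes that are not keratins, 4 of 15 (26.7%) were detected on all 4 arrays, with a median level of -4.10 for the list. They were Vim, encoding vimentin (7.11 ± 0.10), and the lamins of the nuclear envelope Lmna (7.62 ± 0.14), Lmnb1 (3.33 ± 0.28) and Lmnb2 (2.22 ± 0.31; SD, n = 4 for each). Lmnb2 was detected by 1 of 2 probes, and the mean over both was -0.44. Nefh was detected on 3 arrays, Gfap on 2 and Bfsp1 on 1. Of 11 measured genes listed as keratin partners, 6 (54.5%) were detected, with a median level of -2.13. They were Plec, a linker that ties intermediate filaments to other structures (5.75 ± 0.11), Tchp (-2.13 ± 0.69), Aagab (2.89 ± 0.15), Trim21 (-0.03 ± 0.45; SD, n = 4 for each), Hspb1 and Hspa8. Desmosomes anchor keratin filaments at cell contacts, and 2 of 9 of their measured genes (22.2%) were detected, Pkp4 (1.2 ± 0.14) and Dsc2 (-1.90 ± 0.55; SD, n = 4), with a median level of -4.43. Trim21 and Dsc2 were each detected on all 4 arrays by 1 of 2 probes, with means over both of -1.52 and -2.80.

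Genes of the tissues in which keratins are abundant gave counts above and below the 50.8% of all named genes. Keratin-associated proteins, which embed hair keratins, had 11 of 19 members detected on all 4 arrays (57.9%), against 50.8% of all named genes, with a median level of -2.26. They were Krtap1-5 (1.02 ± 0.23), Krtap10-10l2 (-1.03 ± 0.19), Krtap10-9 (-1.0 ± 0.31), Krtap10l2 (1.56 ± 0.23; SD, n = 4 for each), Krtap12-1, Krtap13-2, Krtap14, Krtap16-5, Krtap2-1, Krtap4-7l2 and Krtap5-8. Krtap1-5, Krtap10-10l2, Krtap10l2, Krtap14, Krtap16-5 and Krtap4-7l2 were each detected on all 4 arrays by 1 of 2 probes. Krtap10-9 was detected on all 4 arrays by 3 of 4 probes. Means over all probes were -1.90 for Krtap1-5, -2.23 for Krtap10-10l2, -1.72 for Krtap10-9 and -0.76 for Krtap10l2. The members of this family are near copies of one another, and signal shared between them was not tested. Of 15 measured cornified-envelope genes, 6 (40%) were detected, namely Lce1f (2.85 ± 0.11), Lce1m (1.79 ± 0.13), the crosslinking enzymes Tgm1 (0.87 ± 0.10) and Tgm3 (-1.5 ± 0.42; SD, n = 4 for each), Sbsn and Dmkn, with a median level of -3.36. Lce1f and Sbsn were each detected by 1 of 2 probes, and the mean over both Lce1f probes was -0.37. Of 13 measured hair-follicle and sebaceous-gland genes, 2 (15.4%) were detected, Soat1 (-0.28 ± 0.21) and Plin2 (5.73 ± 0.19; SD, n = 4), both genes of lipid storage, with a median level of -4.63.

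Of 20 measured regulators of keratin genes, 6 (30%) were detected on all 4 arrays, with a median level of -3.76. Tp63, the master factor of stratified epithelia, had a level of 3.15 ± 0.10 (SD, n = 4) on 1 of 3 probes, and the mean over its probes was -1.98. Dlx3, a homeobox factor of hair and epidermis, gave 6.98, 9.43, 8.11 and 9.82 as its levels, in the order of the replicates. Klf4 (-1.17 ± 0.48), Elf3 (-2.06 ± 0.26; SD, n = 4), Sp1 and Hr were the others. The Dlx3 levels spread over 2.85 between arrays, while Tp63 varied little.

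Markers of other cell types that make keratins were in part detected, each list again beside the 50.8% of all named genes. Of 12 epithelial markers, 4 (33.3%) were detected on all 4 arrays, namely Ocln (0.41 ± 0.08), Tjp3 (2.90 ± 0.31), Elf3 and Rab25 (-1.63 ± 0.19; SD, n = 4), with a median level of -4.68. Ocln was detected by 2 of 3 probes, with a mean over them all of -1.30. The defining epithelial genes Epcam (-5.35 ± 0.38) and Cdh1 (-5.16 ± 0.26; SD, n = 4) were not detected on any array. Of 4 measured basal-keratinocyte markers, 2 (50%) were detected on all 4 arrays, Tp63 and the hemidesmosome integrin Itgb4 (-0.29 ± 0.08; SD, n = 4), with a median level of -1.5. Of 10 measured lung epithelial markers, 3 (30%) were detected, namely Napsa (5.68 ± 0.19), Hopx (-2.32 ± 0.32) and Foxj1 (0.91 ± 0.22; SD, n = 4 for each), with a median level of -4.25. Hopx and Foxj1 were each detected by 1 of 2 probes, with means over both of -3.82 and -1.36. The surfactant genes Sftpc, Sftpb and Sftpa1 and the secretory gene Scgb1a1 were not detected on any array. Of 4 measured mesothelial markers, 1 (25%) was detected, Calb2 (-3.05 ± 0.22; SD, n = 4) by 1 of its 2 probes, with a median level of -3.97. With a single group of arrays, the part of other cells in the keratin signals was not tested.

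**Figure D4:**
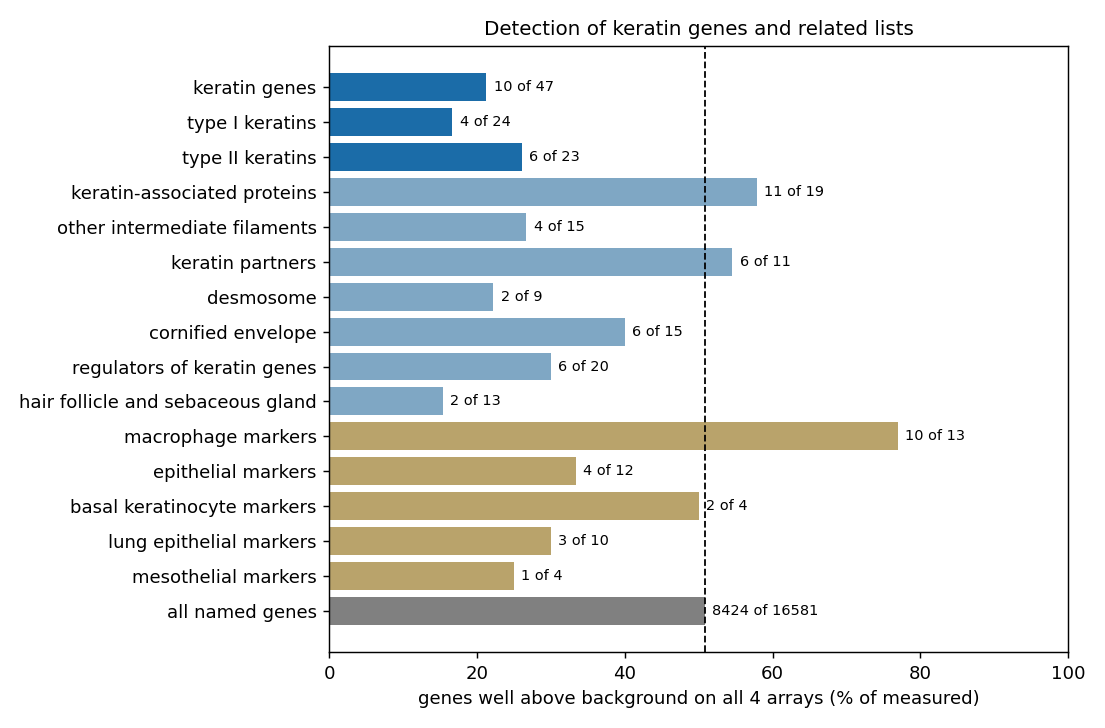
Percentage of the measured genes of each list that were well above background on all 4 arrays, with the counts beside the bars, and all named genes as the bottom bar and dashed line. Keratins reach 10 of 47, the keratin-associated proteins and keratin partners lie above the line at 11 of 19 and 6 of 11, and the macrophage markers lie highest at 10 of 13.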

How the data were processed

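Total RNA of 4 Printex90-exposed NR8383 cultures was hybridised to 1-colour rat arrays from Agilent. The deposited values are linear spot intensities, and the submitters' processing notes name Agilent Feature Extraction 11.0.1.1 as the tool. Per the file headers, the grid of the arrays uses rn4 and background was already subtracted from the signal. The detection and outlier flags are those of the authors' scanner software.

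Probe accessions were matched without version to the RefSeq gene table of GRCr8, which named 21109 probes for 16581 genes and left 24489 unnamed. GRCr8 was used only for names and start regions. The 52 keratin probes have 115 spots on each array. Spots with a non-uniformity or population outlier flag were not used, between 750 and 1551 of 58717 non-control spots per array and 17 of 460 keratin readings. Levels were log2 intensities averaged over the kept spots of a probe minus the 75th percentile of that array's non-control probes. A gene's level is that of its probe with the highest mean among probes measured on all 4 arrays. No spot was saturated. Levels of undetected genes are measured values without a true zero.

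All keratins detected on all 4 arrays were named with every array value, as were Krt79, Krt33b and a list of classical epithelial keratins, and those detected on 1 to 3 arrays. For the other lists, names cover members found on all 4 arrays, with values for up to 4 in list order. A gene of the keratin partners is not reported here and was left out of that list. The members, lists and rules were chosen with earlier results of these data known. No comparison between groups was possible with 1 group, so no test was run. All 4 arrays share a slide and a scan, so neither could be tested as a batch, and 4 arrays limit the precision of each value.

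Alternatives were another detection flag, the number of arrays, the probes and spots of a gene, flagged spots, bright regions (blocks of 16 rows and 8 columns where over 10% of unnamed spots exceeded every other array by at least 1 log2 unit), 3 scalings, normexp background correction, and leaving out each replicate. Only the level calculation and Dixon's outlier criterion were tried on simulated data, and the detection counts and median SDs were not. With 1 array shifted by 0.5, 1, 2 or 4 log2 units, the criterion marked 10%, 32%, 80% and 98% of shifted probes. It also marked 5.07% of unshifted probes. The simulated spread between arrays was smaller than the median SD of 0.274 of the keratins detected on all 4 arrays. These rates therefore need not hold for the keratins. The normexp step used limma 3.58.1 in R 4.3.3. All other steps used Python 3.11.15, in which pandas 2.3.3 and numpy 2.4.6 handled the tables and matplotlib 3.10.9 the figures.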

Additional observations from a re-analysis of the deposited data

Results flagged for a closer look

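Krt33b on replicate 1 was set apart because its level of 9.83 lay far above the other arrays. The gap to the nearest array was 0.97 of the whole range, larger than Dixon's criterion for 4 samples. Since Krt33b was chosen for this value, the gap is a description and no test. Gaps past this criterion arise by chance in about 1 in 20 groups of 4. They occurred in 1 of the 10 keratins detected on all 4 arrays (10%), against 451 of the 8424 named genes detected on all 4 arrays (5.35%). Its level and its bright surroundings are described above.

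The same criterion was met by 3 of the 36 other genes given with values (8.33%). Tgm3, an enzyme that crosslinks the cornified envelope, had its highest level of -0.87 on replicate 4. Cd68, a macrophage lysosomal protein, had its lowest level of 7.24 on replicate 1. Hopx, a lung epithelial gene, had its lowest level of -2.80 on replicate 3.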

How the results depend on the processing

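The count of keratins detected on all 4 arrays was 10. It became 19 under the less strict detection flag, under which 61.7% of all named genes were detected. When 3 of 4 arrays were enough it was 15, against 54.0% of all named genes. With bright regions removed, which took out Krt33a and Krt33b, it was 8, against 48.0% of all named genes. The count on at least 1 array was then 18, without Krt8, Krt20, Krt33a, Krt33b and Krt35, against 58.5% of all named genes. The count on all 4 arrays was 9 when most of a probe's kept spots had to be called, against 50.6% of all named genes. This rule took out Krt14. Leaving out each replicate gave 10 to 13, against 51.2% to 52.6% of all named genes, both highest without replicate 3. The count on at least 1 array was 23. It became 39 under the less strict flag, against 87.8% of all named genes. On leaving out each replicate it was 19 to 23, against 59.1% to 62.6% of all named genes. The median SD of 0.274 became 0.131 after normexp on median signals, 0.466 over all keratins, and 0.206 to 0.265 on leaving out each replicate. Scaling by the array median shifted the median of all named genes by 3.57, the percentile over detected probes shifted it by -3.41 and normexp by 1.29, and Krt79 then lay at 12.02, 5.04 and 7.66. Quantile normalization and keeping flagged spots moved 0 of 25 keratin levels by more than their SD. The level of Krt33b was -0.86 without replicate 1, and its spot was lost with bright regions removed. The alternatives chosen after seeing the data were the rule on most of the spots, normexp on median signals, and leaving out Krt33b. Normexp on mean signals was not run, since the mean signal was not among the columns used here. The counts of the other lists were computed with the well-above-background flag alone. No paired analysis was possible because all arrays belong to 1 group. Depth here is signal over background: most keratins lay within reach of the negative controls, where small differences could not be resolved.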
